A study of Mus musculus with 18 samples.

Results

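Effector-memory T cells in the mouse are commonly described by a small set of abundant transcripts, and 9 of these were followed here: Ly6c2, Ly6a, Ctla2a, Crip1, S100a10, S100a4, S100a6, Vim and Lgals1. They were picked by name from the 46983 genes of each table, with their values in CD8+ T cells of these samples in view, so those values are given as a description and not as a test. Each was read in every library of 3 cell sorts and set against Lyz2, the lysozyme of macrophages, monocytes and neutrophils, because Ly6c2 and the S100 genes are also transcribed in myeloid cells. RNA came from immune cells sorted out of tumours of MC38, a colon carcinoma line of mouse origin, grown under the skin of immunocompetent C57BL/6 females injected at 6 weeks of age. In each sort, 3 libraries came from mice given anti-PD-1 plus D18 (below, D18) and 3 from mice given anti-PD-1 without D18 (below, anti-PD-1), which makes 18. D18, an agent known here by its code name, was given at 25 µg per mouse 1 time per week, and both groups received the PD-1-blocking antibody at 200 µg per mouse 2 times per week, for 2 weeks from a mean tumour volume of 100 mm3. No tumour without anti-PD-1 was included, so each comparison asks what differed when D18 was added. The labels call the sorts dendritic cells, CD4+ T helper cells and CD8+ T cells. Whether each replicate is a mouse of its own is not stated in the sources used here, and p-values then measure only the spread between these samples, which may be technical.

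Naive T cells that meet antigen turn on a programme of surface, cytoskeletal and calcium-binding proteins that fits them for migration into tissue, and memory cells keep much of it. Ly6c2 and Ly6a encode GPI-anchored surface proteins of the Ly6 family: Ly6C marks effector and memory CD8+ T cells but also inflammatory monocytes, and Ly6A (Sca-1) is induced by interferon in many leukocytes. Ctla2a encodes an inhibitor of cathepsin L-like cysteine proteases that was cloned from activated mouse T cells, and the S100 genes encode small calcium-binding proteins, of which S100A10 is the partner of annexin A2. Crip1 encodes a small LIM-domain protein, Vim the intermediate filament vimentin, and Lgals1 the secreted lectin galectin-1, all also made by stromal and myeloid cells.

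The libraries were shallow, from 11170 to 266392 reads each, and 2.39% to 71.9% of reads were mitochondrial, so levels are given as nuclear CPM, the reads of a gene in CPM of the library's reads with mitochondrial genes left out of the total. The sorts were checked against their markers. All 17 of 17 T cell markers had reads in every library of the CD8+ sort, where they summed to 4913 to 12512 nuclear CPM with D18 and 3252 to 11160 with anti-PD-1. In the CD4+ sort the same list summed to 5383 to 9839 with D18, against 44.0, 450 and 8069 in anti-PD-1 replicates 1, 2 and 3, and Cd3e, the CD3 epsilon chain, had 0, 1 and 45 reads in these 3 libraries. The libraries labelled CD4+ T helper cells, anti-PD-1 replicates 1 and 2, thus went against their label, and CD4+ D18 replicate 3 held 83 reads of Cd8a but 2 of Cd4. In the dendritic cell sort, both libraries numbered 3 held reads of all 17 T cell markers, with 69 reads of Cd3e with D18 and 34 with anti-PD-1, whereas Cd3e was at 0 in the other 4. Macrophage markers (18 genes) summed to at least 8950 nuclear CPM in every library but CD8+ D18 replicates 1 and 2, which had 1388 and 3418. CD8+ D18 replicate 3 had 31394 and the CD8+ anti-PD-1 libraries 25039 to 50056. Dendritic cell markers (14 genes, among them the MHC class II genes that macrophages also transcribe) summed to 3556 to 10950 nuclear CPM with D18 and 7694 to 35254 with anti-PD-1 in the sort labelled dendritic cells, against 6604 to 37312 in the CD4+ anti-PD-1 libraries. Of the defining genes, Flt3 had 13, 1 and 3 reads with D18 and Clec9a 9, 0 and 5. Flt3, Clec9a and Xcr1 had no read in the 3 anti-PD-1 libraries of that sort. Other genes of the list did have reads there, with 2, 0 and 4 for Batf3, 0, 1 and 0 for Zbtb46, 0, 3 and 8 for Siglech and 20, 17 and 22 for Itgax. The macrophage genes Apoe (660 to 2386 reads) and C1qa (245 to 580) were abundant in these libraries. With D18, Apoe had 894, 32 and 960 reads and C1qa 491, 25 and 406. The anti-PD-1 libraries thus lacked Flt3, Clec9a and Xcr1 at this depth, and dendritic cell sort is used below only as the name in the labels. D18 replicate 2 of that sort held 11170 reads in all. Mitochondrial mt-Atp6, mt-Co2 and mt-Co3 had no read in anti-PD-1 replicates 1 and 2 of every sort and 5 to 334 reads in the other 12 libraries. The labels do not name this division, which splits the anti-PD-1 group and holds no D18 library on its 0 side.

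The sequences below show which reads the 2 genes with a near copy could share. Ly6c2 lies at chr15:75108158-75111970 on the minus strand of mm10, near its relative Ly6c1 (chr15:75044018-75048830). Their coding sequences are both 393 bases long and 97.7% identical, with 188 bases identical in a row. The first 150 coding bases hold 6 of the differences, in capitals:

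Ly6c2: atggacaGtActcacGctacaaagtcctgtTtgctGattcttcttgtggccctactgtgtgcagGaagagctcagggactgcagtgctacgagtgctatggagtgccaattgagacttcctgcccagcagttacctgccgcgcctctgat

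Ly6c1: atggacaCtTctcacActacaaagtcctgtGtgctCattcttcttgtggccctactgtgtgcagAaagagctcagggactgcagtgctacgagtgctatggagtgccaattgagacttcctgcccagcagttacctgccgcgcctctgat

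Of all 50-base windows of Ly6c2 exons, 13.9% also occur in Ly6c1. Ly6c1 itself had at most 2 reads in any library, so nearly all reads that were counted for this pair stood under Ly6c2. Ctla2a lies at chr13:60934155-60936625 (minus strand) beside Ctla2b (chr13:60895350-60897447), a shorter gene with 339 coding bases against 411. The capitals mark the stretch at the start of Ctla2a that Ctla2b lacks and the bases that differ after it:

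Ctla2a: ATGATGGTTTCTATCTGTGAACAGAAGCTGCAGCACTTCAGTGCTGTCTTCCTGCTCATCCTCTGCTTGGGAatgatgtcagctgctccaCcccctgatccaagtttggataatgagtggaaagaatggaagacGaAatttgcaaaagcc

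Ctla2b: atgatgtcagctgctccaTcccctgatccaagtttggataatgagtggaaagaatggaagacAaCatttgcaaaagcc

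Over the whole alignment the pair was 79.3% identical, counting 72 gap columns, and Ctla2b had 0 to 22 reads per library. Ctla2a also shares 18.2% of its 50-base windows with the overlapping annotated gene Gm49391, which is not among the genes counted in these samples. S100a4 (chr3:90603771-90606045, plus strand) shares 302 of its 584 exon bases with Gm42674 on the same strand, which had 0 reads in all 18 libraries, so reads in that stretch may have been left out of the S100a4 count. Of the other members, Ly6a (chr15:74994877-74998031) shared 19.0% of its windows with 4 other genes, and Crip1 (chr12:113146316-113153879), S100a10 (chr3:93555080-93564643), S100a6 (chr3:90612882-90624181), Vim (chr2:13573927-13582826) and Lgals1 (chr15:78926725-78930465) shared none.

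Promoters were read from RefSeq (GRCm38.p6) for 6 of the 9 members, as the 250 bases before the annotated start. Those of the 3 matched members with the largest change in CD8+ T cells, Ly6c2, Ctla2a and Crip1, are shown 5′ to 3′, with the motifs that were searched in capitals. The letters searched, on both strands, were TATAAA for the TATA box, GGGCGG for the GC box, TGANTCA for AP-1, TTCNNNGAA for STAT and GGTGTGA for T-box factors, which occur in 12.4%, 32.7%, 6.75%, 7.02% and 3.33% of 32851 promoters.

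Ly6c2, chr15:75111972-75112221, minus strand: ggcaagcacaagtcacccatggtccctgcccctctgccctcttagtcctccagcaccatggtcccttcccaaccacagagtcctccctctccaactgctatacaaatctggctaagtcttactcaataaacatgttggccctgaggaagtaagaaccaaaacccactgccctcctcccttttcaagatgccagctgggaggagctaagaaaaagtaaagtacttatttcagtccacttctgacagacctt

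Ctla2a, chr13:60936626-60936875, minus strand: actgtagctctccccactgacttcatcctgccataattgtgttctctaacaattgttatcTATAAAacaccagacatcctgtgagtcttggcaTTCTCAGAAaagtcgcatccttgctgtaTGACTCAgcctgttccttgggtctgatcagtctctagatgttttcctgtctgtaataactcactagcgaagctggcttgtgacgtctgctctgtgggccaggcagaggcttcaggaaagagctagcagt

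Crip1, chr12:113151762-113152011, plus strand: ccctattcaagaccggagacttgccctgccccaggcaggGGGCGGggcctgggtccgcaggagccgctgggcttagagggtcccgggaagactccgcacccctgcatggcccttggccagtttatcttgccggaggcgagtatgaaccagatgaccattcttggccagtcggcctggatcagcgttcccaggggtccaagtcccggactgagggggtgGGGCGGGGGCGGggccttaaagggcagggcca

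The Ctla2a window holds the TATAAA letters at -190, the STAT letters at -157 and the AP-1 letters at -129, counted from the start site. The Crip1 window holds GGGCGG at -211, -32 and -26, of which the last pair abut. None of the 5 strings is in the Ly6c2 or S100a6 window, and S100a4 and Vim each hold TATAAA, at -31 and -32.

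Levels between genes were compared per kilobase of exon. By the median over 6 libraries of a sort, in nuclear CPM per kilobase, Ly6a (1537 in the CD8+ sort, 2064 in the CD4+ sort and 1782 in the dendritic cell sort) and Lgals1 (1466, 1224 and 1261) stood at the top. S100a4 (117, 43.5 and 32.5) and Ctla2a (198, 124 and 0) lay low, and Crip1 had 161, 155 and 375. Between lay Ly6c2 at 514, 344 and 177, S100a10 at 506, 617 and 251, S100a6 at 491, 407 and 409, and Vim at 345, 302 and 325. Within each sort the ranges of Ly6a and Lgals1 overlapped, as did those of Ly6c2, S100a10 and S100a6. Such ranges do not compare the genes within a library, and in the CD4+ sort Ly6a lay above Lgals1 in every library. The order of neighbours was not tested. Lyz2 had 2615, 3718 and 5766 on the same scale, above every member. Tables were normalised separately per sort, so the order of sorts for a gene is given as levels, with no test. Relative to its mean Vim varied least over the 18 libraries (1506 ± 551 nuclear CPM, SD). It lay between 1071 and 2544 in 16 of them, and the exceptions were CD4+ anti-PD-1 replicates 1 and 2, at 407 and 321. Ctla2a ranged from 843 to no read at all in 5 libraries.

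**Figure D1:**
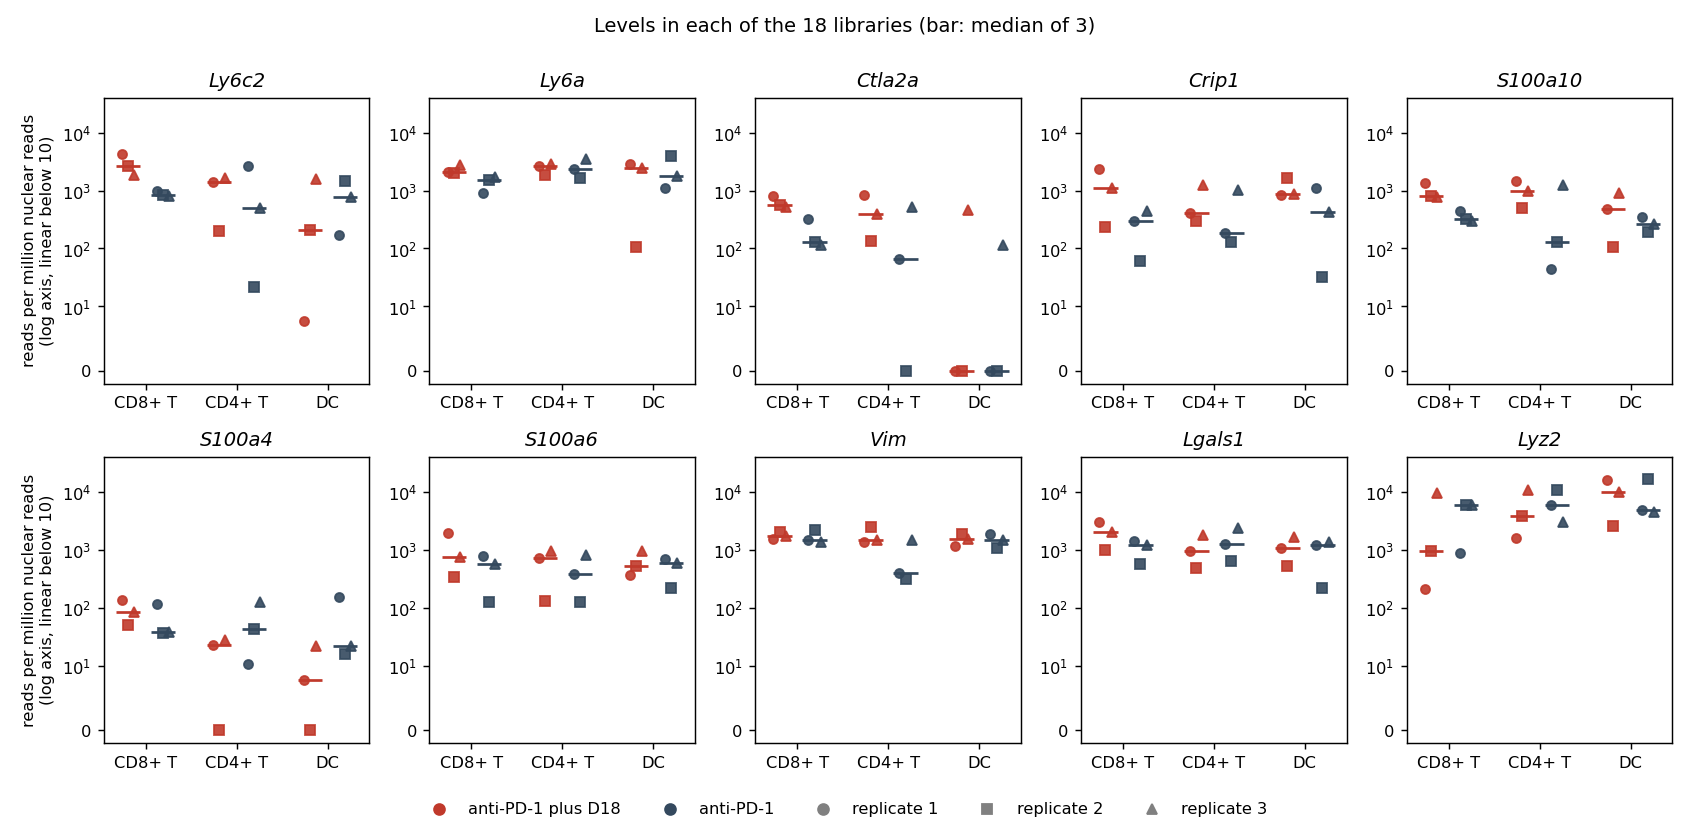
Level of each gene in each library, in nuclear CPM on an axis that is logarithmic above 10 and linear below it, by sort, with anti-PD-1 plus D18 (red) left of anti-PD-1 (blue) and a bar at the median of 3. Ly6c2, Ly6a, Ctla2a and S100a10 lie higher in all 3 D18 libraries of the CD8+ sort than in any anti-PD-1 library of it, and Ctla2a is at 0 in 4 of 6 dendritic cell libraries.

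In the CD8+ T cell sort, the surface gene Ly6c2, the protease inhibitor gene Ctla2a and the annexin A2 partner S100a10 stood higher with D18, by 1.41 to 1.78 on the log2 scale, without overlap between the groups. These values chose the genes, so no test is given for them. Ly6c2 had 4280, 2624 and 1832 nuclear CPM with D18 (replicates 1, 2 and 3), against 983, 832 and 820 with anti-PD-1. The D18 libraries spread widely while the anti-PD-1 libraries lay close together, and the lowest D18 library was still above the highest anti-PD-1 one. The log2 change, as the difference of group means of log2(normalised reads + 1), was 1.62 ± 0.45 (SE, n = 3 per group). Its family member Ly6a had 2072, 1989 and 2739 with D18, against 924, 1541 and 1717 with anti-PD-1, a log2 change of 0.72 ± 0.45. These groups did not overlap in nuclear CPM, but they overlapped after division by the authors' size factors, as used in the fit.

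Ctla2a had 801, 564 and 514 nuclear CPM with D18, against 323, 129 and 114 with anti-PD-1, and its log2 change was 1.78 ± 0.47. All 3 D18 libraries lay above all 3 anti-PD-1 libraries, although in reads the values were small, with 41, 142 and 30 with D18 and 22, 21 and 12 with anti-PD-1. S100a10 stood at 1329, 809.8 and 787 with D18 and 440.0, 321 and 296 with anti-PD-1, a log2 change of 1.41 ± 0.43. S100a6, known as calcyclin, overlapped between the groups, with 1954, 349 and 770.3 with D18 and 777, 129 and 572 with anti-PD-1 (log2 change 1.02 ± 0.85). S100a4, a calcium-binding protein of motile cells, had only 7, 13 and 5 reads with D18 and 8, 6 and 4 with anti-PD-1, and fell below the filter of a mean of 10 normalised reads.

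Crip1 had the largest mean difference and the largest error, 2.01 ± 1.00, but the difference was 1.19 without anti-PD-1 replicate 2, below those of Ctla2a (1.57) and Ly6c2 (1.55) in that setting. It stood at 2345, 238 and 1113 nuclear CPM with D18 and at 293, 61.7 and 439 with anti-PD-1. Within each replicate number the D18 library was the higher, but D18 replicate 2 was below 2 of the anti-PD-1 libraries. Lgals1 had 3010, 1024 and 2088 with D18 and 1408, 586 and 1240 with anti-PD-1, and its log2 change was 0.86 ± 0.58. Vim, the vimentin gene, had 1524, 2080 and 1746 with D18, against 1481, 2201 and 1383 with anti-PD-1, a log2 change of 0.08 ± 0.40.

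Of the 8 members tested in the CD8+ sort, 8 had a log2 change above 0, with a median of 1.21, where 48.3% of the 1569 genes tested lay above 0 and their median change was -0.03. In 3 of the 8 the groups did not overlap, which also held for 6.88% of all tested genes in that direction; 7.65% stood apart and lower. limma called 0 of the 1569 genes at an adjusted p of 0.05 (130, or 8.29%, had an unadjusted p below 0.05), that is 0%. Libraries of the same replicate number deviated together in this sort, and with replicate number as a block limma called 20 genes (1.27%), 9 of them higher with D18 (0.574%), among which were Ly6c2, Ctla2a, S100a10 and Crip1. With the block and 1 pair of libraries left out, Ly6c2 was called each time, and Ctla2a, S100a10 and Crip1 only without pair 1. The fits with a pair left out were chosen after seeing the data. The contrast was the one that chose the genes, so no call of a member, that of Ly6c2 included, is read as support. With the division by mt-Atp6, mt-Co2 and mt-Co3 as a term, anti-PD-1 replicate 3 is the only library left to stand for its group against D18, so the term cannot be told apart from leaving out replicates 1 and 2. Against that 1 library the log2 changes were 1.62 for Ly6c2, 2.22 for Ctla2a and 1.54 for S100a10, but 0.85 for Crip1, 0.47 for Lgals1, 0.38 for S100a6 and 0.27 for Ly6a.

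**Figure D2:**
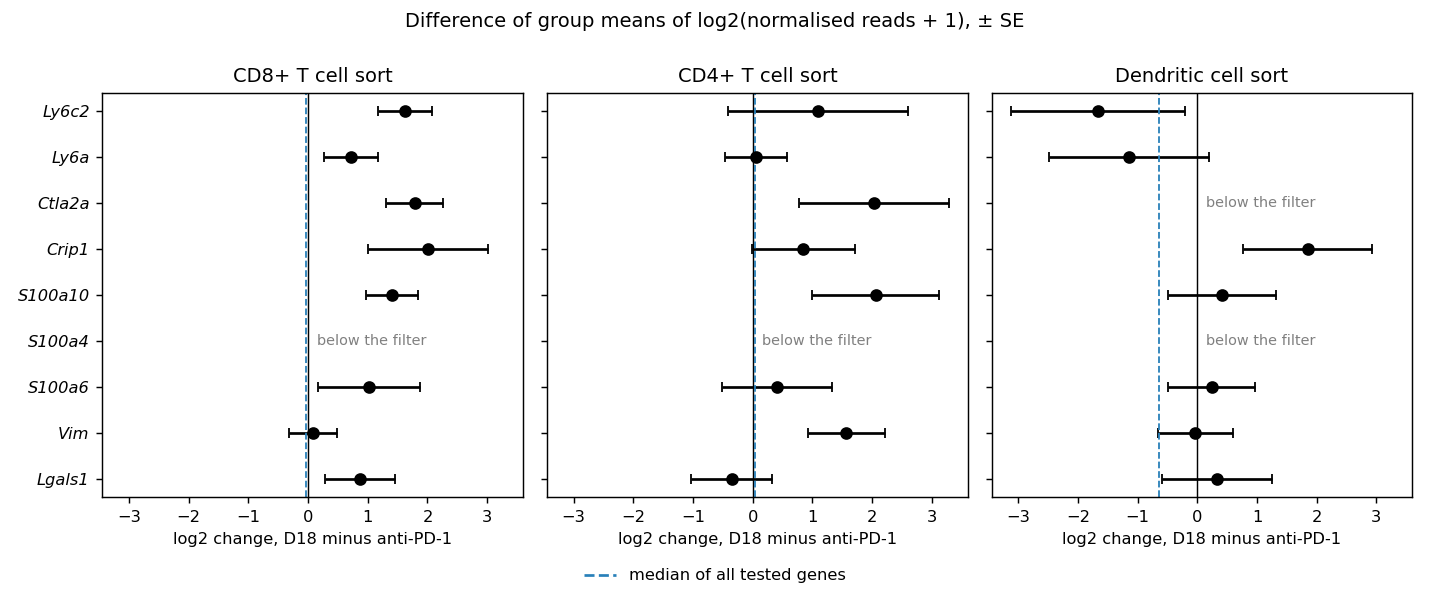
Log2 change of each member (D18 minus anti-PD-1, horizontal axis) in the 3 sorts, as the difference of group means of log2(normalised reads + 1) with its SE (bars); the dashed line is the median of all tested genes. The 8 tested members lie right of 0 in the CD8+ sort, 7 of 8 in the CD4+ sort with wide errors, and 4 of 7 in the dendritic cell sort.

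Markers of whole cell types differed along with these values, and their part in the members' differences was not tested. In the CD8+ sort 14 of 17 T cell markers had a higher mean with D18 (median log2 change 0.42) and 16 of 16 tested macrophage markers a lower one (median -2.39), although limma called none of them. In bulk samples, fewer cells of a type and less RNA per cell cannot be told apart. Set against the T cell markers of the same library, Ctla2a had 82.5, 45.1 and 105 reads per 1000 T cell marker reads with D18, and 35.5, 11.6 and 35.2 with anti-PD-1, again without overlap. Ly6c2 had 441, 210 and 373 per 1000 with D18 and 108, 74.6 and 252 with anti-PD-1, and S100a10 had 137, 64.7 and 160 with D18 and 48.4, 28.7 and 90.9 with anti-PD-1. On this scale the groups of every member but Ctla2a overlapped. How many of all tested genes stood apart on it was not computed, so nothing is read from Ctla2a standing apart. Within pairs of the same replicate number, 7 of the 9 were higher with D18 in all 3 pairs, where 10.8% of tested genes were. S100a6 was higher in 2 pairs and Vim in 0. The 7 include S100a4, which fell below the filter that tested genes had to pass. The values of this sort chose the genes, so nothing is read from this count.

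In the CD4+ T cell sort, whose libraries are not those of the CD8+ values that chose the genes, no member passed the test. limma called 0 of 966 genes (0%; 100, or 10.4%, with an unadjusted p below 0.05). Of 8 members tested, 7 had a log2 change above 0, where 51.6% of all tested genes did, and their median was 0.97 against 0.03 over all genes. In none did the groups stand apart, where 5.28% of all genes stood apart and higher with D18 and 9.21% apart and lower.

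The 2 largest differences here were those of S100a10 and Ctla2a. S100a10 had 1480, 496 and 999.9 nuclear CPM with D18, against 44.0, 129 and 1260 with anti-PD-1 (log2 change 2.06 ± 1.06, limma adjusted p = 0.487). Ctla2a had 843, 132 and 392.5 with D18, against 66.0, 0 and 517 with anti-PD-1 (2.03 ± 1.25, limma adjusted p = 0.580). In both genes the low anti-PD-1 values were those of replicates 1 and 2, the libraries with 4 and 12 of 17 T cell markers detected, and replicate 3 lay among the D18 libraries; the 0 of Ctla2a in replicate 2 allows up to 64.3 nuclear CPM. Vim had the smallest unadjusted p among the members (0.0357, limma adjusted p = 0.453), with 1389, 2544 and 1476 with D18 and 407, 321 and 1497 with anti-PD-1, a log2 change of 1.57 ± 0.65. Its low values fell in the same pair of libraries.

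Ly6c2 was high in one of those libraries. It had 1389, 198 and 1645 with D18 and 2630, 21.4 and 496 with anti-PD-1 (1.10 ± 1.51, limma adjusted p = 0.845). Its highest CD4+ library, anti-PD-1 replicate 1, was thus one with 0 reads of Cd3e. D18 replicate 3, at 1645, was the library that held 83 reads of Cd8a but 2 of Cd4. Anti-PD-1 replicate 1 also had the highest sum of 7 other monocyte markers, 3357 nuclear CPM, against 407 and 1153 in the other anti-PD-1 libraries. Of its 305 reads of these markers, 149 were of Plac8. The same library had the most reads of Siglech, a gene of the dendritic cell list (41), and of Ly6d (14). Which cells gave its Ly6c2 reads was not tested. Ly6a had overlapping groups with nearly equal means, at 2642, 1850 and 2925 with D18 and 2333, 1650 and 3480 with anti-PD-1 (0.05 ± 0.52, limma adjusted p = 0.988). Crip1 had 409.9, 297 and 1233 with D18 and 187, 129 and 1002 with anti-PD-1 (0.85 ± 0.86, limma adjusted p = 0.750). S100a6 (0.41 ± 0.92) and Lgals1 (-0.35 ± 0.68) had limma adjusted p of 0.906 and 0.895, and S100a4 had 0 to 3 reads with D18 and 1 to 12 with anti-PD-1. Without anti-PD-1 replicates 1 and 2, the log2 changes turned to -0.51 for Ctla2a, -0.48 for S100a10, -0.89 for Crip1, -0.82 for S100a6 and -0.52 for Ly6a, and those of Ly6c2 (0.63) and Vim (0.21) stayed above 0, with anti-PD-1 replicate 3 as the only library of its group. Without anti-PD-1 replicate 3 instead, S100a10 was called (3.33, limma adjusted p = 0.0404), as 1 of 20 genes called among 969 in that setting (2.06%), where 206 had an unadjusted p below 0.05. T cell markers lay on the same side as most members: 12 of 12 tested had a higher mean with D18 (median log2 change 2.68), and none was called. Their part in the members' differences was not tested.

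In the dendritic cell sort no member passed either, and the members did not share a direction. limma called 0 of 886 genes (0%; 61, or 6.88%, with an unadjusted p below 0.05). The median change of all tested genes was -0.65, and it was 0.03 without the shallow D18 replicate 2. Of 7 members tested, 4 had a log2 change above 0, where 30.9% of all genes did, and their median was 0.24. Groups did not stand apart in any, where 4.18% of all genes stood apart and higher and 19.9% apart and lower.

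Crip1 had the largest change, 1.85 ± 1.08 (limma adjusted p = 0.551), with 831, 1674 and 879 nuclear CPM with D18 and 1085, 32.0 and 421 with anti-PD-1. The Ly6 genes lay lower with D18 in the mean: Ly6c2 had 7.77, 209 and 1553 with D18 and 172, 1438 and 759.6 with anti-PD-1 (-1.67 ± 1.46, limma adjusted p = 0.614). Ly6a had 2866, 105 and 2483 with D18 and 1102, 3963 and 1812 with anti-PD-1 (-1.15 ± 1.34, limma adjusted p = 0.696), and without D18 replicate 2, where it had 1 read, the change was 0.51. S100a10 (0.41 ± 0.91), S100a6 (0.24 ± 0.73), Lgals1 (0.33 ± 0.92) and Vim (-0.04 ± 0.63) had limma adjusted p between 0.835 and 0.984, with overlapping groups. S100a4 had at most 3 reads with D18 and at most 9 with anti-PD-1.

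Ctla2a, which fell below the filter here, was read only in the 2 libraries numbered 3, with 64 reads with D18 and 15 with anti-PD-1, the same libraries that held reads of all 17 T cell markers. In the other 4 it had no read; a count of 0 allows up to 23.3 and 314 nuclear CPM in D18 replicates 1 and 2, and up to 51.7 and 47.9 in anti-PD-1 replicates 1 and 2. The limit in D18 replicate 2 is too high to compare with the others. In those 2 anti-PD-1 libraries, where no T cell marker had a read, Ly6c2 still had 10 and 90 reads, S100a10 had 20 and 12, and Ly6a 64 and 248.

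Whether a member's change differed between the CD4+ and dendritic cell sorts was tested as an interaction in limma over 744 genes, of which 0 were called (9 with an unadjusted p below 0.05). The largest difference between the sorts among the members was that of Ly6c2, 2.77 ± 2.32 on the log2 scale (limma adjusted p = 0.850). The CD8+ sort was left out of this test, since its contrast chose the genes.

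Across the 18 libraries, Ctla2a followed the summed T cell markers most closely (Spearman rho 0.84), ahead of S100a10 (0.66), Vim (0.49) and Ly6c2 (0.36), while S100a4 (0.29), S100a6 (0.24) and Lgals1 (0.21) lay lower and Crip1 (-0.0021) and Ly6a (-0.04) were near 0. With Lyz2, Ctla2a had a rho of -0.51 and Vim of -0.44, and Ly6a one of 0.41. Among the members, Ctla2a went with S100a10 (rho 0.85) and S100a6 with Lgals1 (0.85), and Crip1 went best with S100a6 (0.72). In the 6 libraries with the lowest T cell marker sums, which were 0 to 732 nuclear CPM, Ctla2a was at 0 in 5 and at 66.0 in the sixth, while Ly6a ran from 105 to 3963 and Ly6c2 from 7.77 to 2630. These are descriptions over points that share a sort, treatment and shallow depth.

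**Figure D3:**
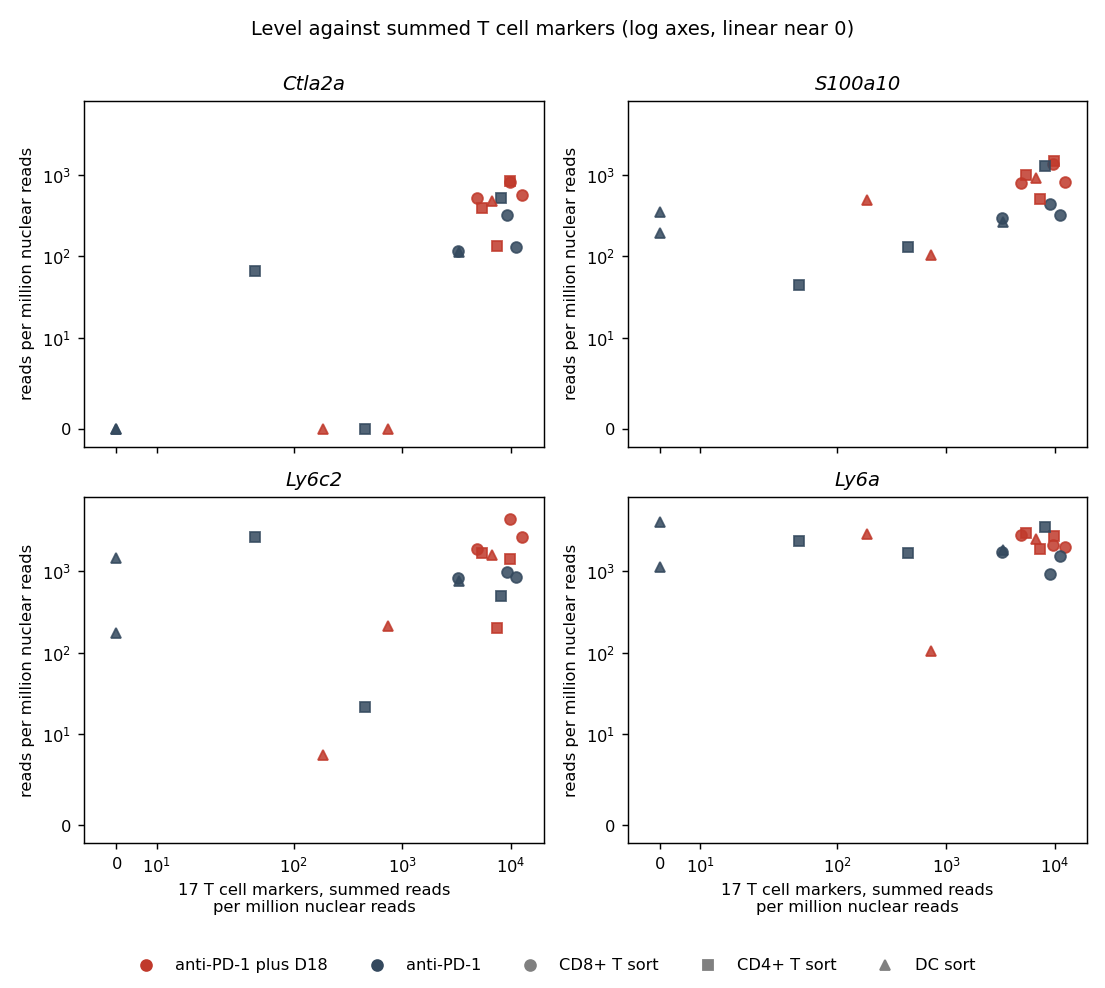
Level of 4 members against the summed level of 17 T cell markers in each of the 18 libraries, both in nuclear CPM on axes that are logarithmic above a linear stretch near 0; colour gives the treatment and shape the sort. In the 6 libraries with the lowest T cell marker sums Ctla2a is at 66.0 or below, whereas Ly6a is above 1000 in 5 of them and Ly6c2 in 2.

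Likeness was measured as Spearman's rho with each of 1330 genes that had at least 10 reads in at least 9 of the 18 libraries. The genes most like Ctla2a were Ablim1 (rho 0.92), Trbc1, a T cell receptor beta constant gene (0.90), and Cish (0.89). Those most like S100a10 were Ccnd2 (0.93), Myl6 (0.90) and Oaz1 (0.88), and those most like Ly6c2 were H2afy (0.84), AU020206 (0.69) and Dock8 (0.68). S100a6 and Lgals1 had ribosomal protein genes among their nearest: Rpl36 (0.91) and Rps14 (0.90), beside Tmsb10 (0.91), for S100a6, and Rps19 (0.91) and Rps20 (0.90), beside Snrpg (0.92), for Lgals1. Crip1 was nearest to Ndufs6 (0.89), Lars2 (0.83) and Uqcrq (0.81), and Ly6a to Rab11a (0.69), Psma6 (0.66) and Nfkbia (0.63). Vim was nearest to Gbp4 (0.78), Eef1d (0.67) and Ifi203 (0.65), and S100a4 to Cotl1, Vamp8 and Sema4d (each 0.73). S100a4 itself, with 0 to 13 reads per library, did not reach the filter set for the other genes, so its order rests on few reads. Each rho named is among the highest of 1330, over points that share a sort, treatment and shallow depth.

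Each member was then set against Lyz2 within the same library, as log2 of its reads over those of Lyz2 with 0.5 added to both. In the CD8+ sort all 9 ratios were higher with D18 in the mean, by 1.40 (Vim) to 3.37 (Crip1), but so were those of 90.8% of the genes tested there, and all groups overlapped, where 0.255% of genes stood apart and higher. Within pairs of the same replicate number, 6 of the 9 ratios were higher with D18 in all 3 pairs, where 19.0% of tested genes were. Among the 6 were those of Ly6c2, Ctla2a and S100a10, and that of S100a4, which fell below the filter that tested genes had to pass. The values of this sort chose the genes, so nothing is read from these ratios as a count. Lyz2 itself had 215, 957 and 9706 nuclear CPM with D18, against 880, 5925 and 5970 with anti-PD-1, so D18 replicate 3 had the highest level of the sort. The ratio of Ly6c2 was 4.25, 1.45 and -2.40 with D18 and 0.16, -2.83 and -2.86 with anti-PD-1. Ly6c2 thus outnumbered Lyz2 in D18 replicates 1 and 2 and, narrowly, in anti-PD-1 replicate 1, and D18 replicate 3 lay beside the anti-PD-1 libraries. Ctla2a had ratios of 1.85, -0.76 and -4.22 with D18 and -1.43, -5.48 and -5.65 with anti-PD-1, and S100a10 of 2.57, -0.24 and -3.61 with D18 and -0.99, -4.19 and -4.31 with anti-PD-1.

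In the CD4+ sort 8 of 9 ratios were higher with D18, from -0.39 for S100a4 to 2.83 for Ctla2a, where 72.2% of genes were. In the dendritic cell sort 6 of 9 were, from -1.85 for Ly6c2 to 1.98 for Crip1, where 35.3% of genes were. All groups overlapped, where 0.104% of genes in the CD4+ sort and 0.678% in the dendritic cell sort stood apart and higher. The smallest exact permutation p (two-sided, n = 3 per group, smallest possible 0.1) was 0.2 in the CD4+ sort, for Vim, and 0.3 in the dendritic cell sort, for Ly6a, and both were 0.969 after adjustment over 18 tests. In the dendritic cell sort Lyz2 outnumbered every member in every library, and the highest ratio was -0.46 (Vim, D18 replicate 2). Anti-PD-1 replicate 2 weighed on the count of ratios above 0 over all sorts, which was 23 of 27, and 14 without that replicate. The 23 include all 9 of the CD8+ sort, whose values chose the genes, so nothing is read from this count.

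**Figure D4:**
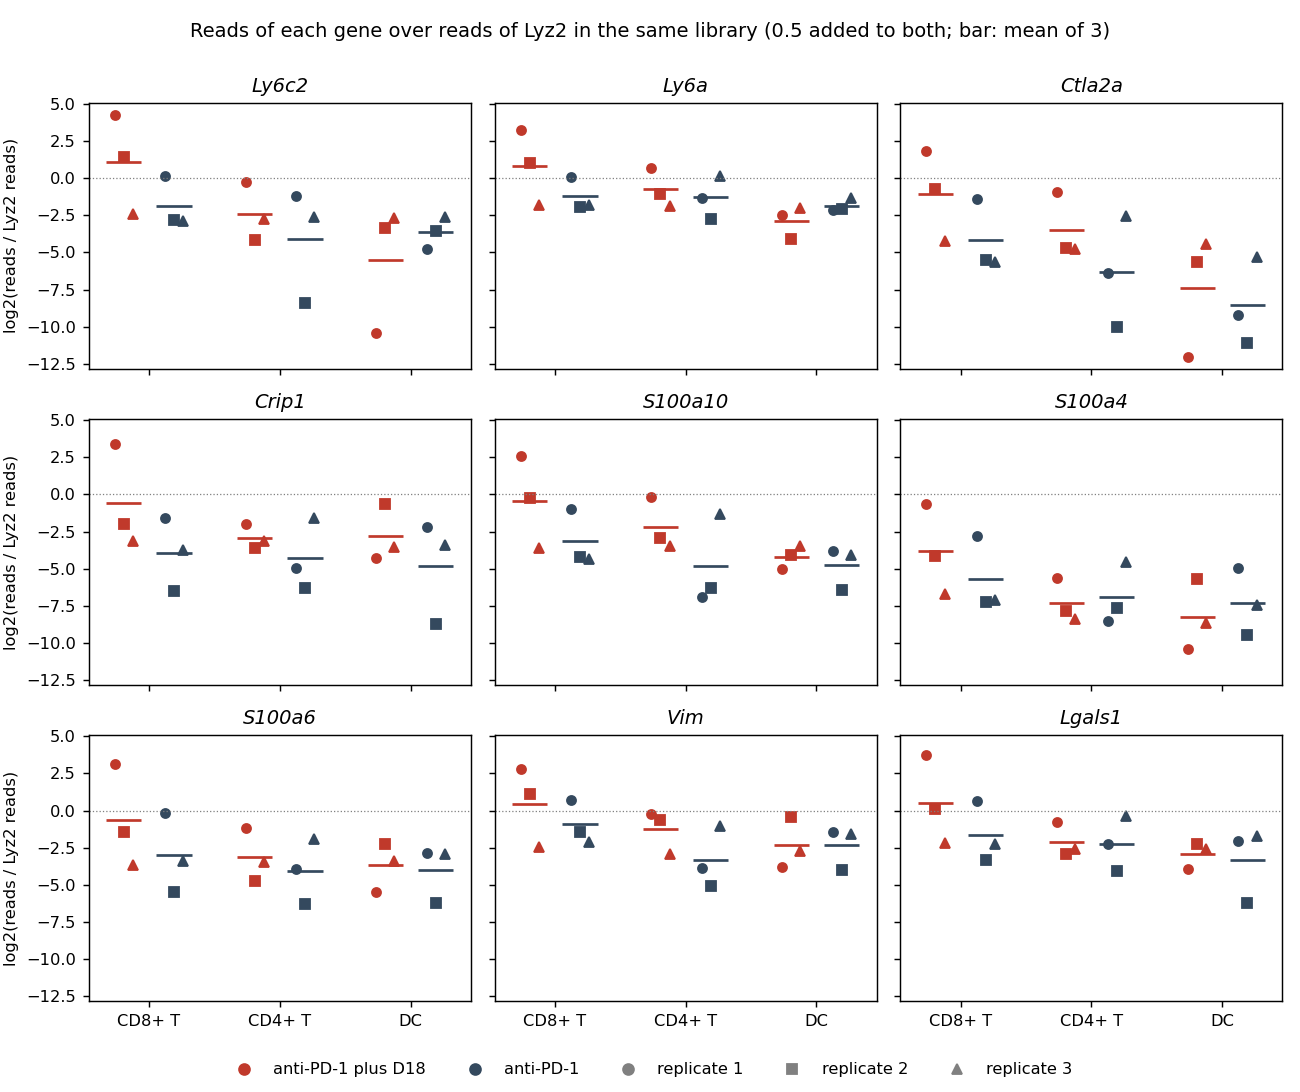
Log2 of the reads of each member over the reads of Lyz2 in the same library (0.5 added to both), by sort, with anti-PD-1 plus D18 (red) left of anti-PD-1 (blue); bars are means of 3 and the dotted line is an equal number of reads. In the CD8+ sort D18 replicate 1 lies highest in every panel. D18 replicate 2 lies below anti-PD-1 replicate 1 for Crip1, S100a4, S100a6 and Lgals1, and above all anti-PD-1 libraries for the other members. D18 replicate 3 lies below anti-PD-1 replicate 1 in every panel, and for Vim below all anti-PD-1 libraries.

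The other genes of the programme were taken from a list of 30 effector and memory T cell genes. In the CD8+ sort 21 of the 22 tested had a higher mean with D18 (median log2 change 0.70), in the CD4+ sort 15 of 18 (median 1.58), and in the dendritic cell sort 10 of 15 (0.42), where 48.3%, 51.6% and 30.9% of all tested genes did. The list was chosen with results of these data known, so its direction is not independent evidence. limma called none without the block. Gzma, the granzyme A of killer cells, had 17, 350 and 28 reads with D18 in the CD8+ sort and none in the 3 anti-PD-1 libraries, and Itgal, the LFA-1 alpha chain, had 43, 218 and 30 with D18 against 18, 55 and 12 with anti-PD-1 (log2 change 1.66 ± 0.47). Both were called there with the block, with limma adjusted p of 0.0141 and 0.0340, which makes 2 of 22 where 0.574% of all tested genes were called higher, but with 1 pair left out as well they were called only without pair 1. In normalised reads Itgal also stood apart and higher in the CD4+ sort, with 31, 10 and 46 reads with D18 and 2, 0 and 22 with anti-PD-1 (3.13 ± 1.05, limma adjusted p = 0.453), and in the dendritic cell sort (2.52 ± 1.07, limma adjusted p = 0.551). Id2, a transcriptional regulator of effector cells, had 78, 37 and 179 reads with D18 in the CD4+ sort and 14, 19 and 77 with anti-PD-1 (limma adjusted p = 0.453). Cd44, the hyaluronan receptor of memory T cells, had a change of 0.95 ± 0.59 in the dendritic cell sort (limma adjusted p = 0.551). Cx3cr1, a chemokine receptor of terminal effector cells and of macrophages, went the other way in all 3 sorts, with changes of -3.53 ± 1.19, -1.90 ± 0.50 and -2.91 ± 0.99 (limma adjusted p = 0.564, 0.453 and 0.551). Of 12 genes of naive and central memory T cells only Tcf7 (-1.68 ± 1.10) and Satb1 (0.28 ± 1.01) could be tested, in the CD8+ sort, and neither passed (limma adjusted p = 0.674 and 0.937).

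No relative of the members passed the test in any sort. Ly6e, the only one of 7 other Ly6 genes with enough reads, had changes of -0.45 ± 0.46, -0.57 ± 0.47 and -0.37 ± 0.67 in the CD8+, CD4+ and dendritic cell sorts (limma adjusted p = 0.755, 0.650 and 0.798). Of 15 S100 and annexin genes, 3 of 6 tested were higher with D18 in the CD8+ sort, 3 of 4 in the CD4+ sort and 1 of 5 in the dendritic cell sort. Anxa2, which encodes the partner of S100A10, had 39, 335 and 20 reads with D18 in the CD8+ sort and 86, 240 and 69 with anti-PD-1. Its change was -0.61 ± 0.55 (limma adjusted p = 0.726), where that of S100a10 was 1.41, and 0.71 ± 0.56 in the CD4+ sort (limma adjusted p = 0.650). Anxa6, another calcium-dependent membrane binder, had 25, 28 and 34 reads with D18 in the CD4+ sort and 2, 0 and 42 with anti-PD-1 (3.07 ± 1.15, limma adjusted p = 0.453), low in the same pair of libraries as Ctla2a.

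Among 5 relatives of Ctla2a and cathepsin genes, 1 of 4 tested had a higher mean with D18 in the CD8+ sort and 0 of 3 in each other sort. Ctsl, the cathepsin L that CTLA-2 alpha inhibits, had a change of -2.51 ± 1.51 in the CD8+ sort (limma adjusted p = 0.671). Cst3, the secreted inhibitor cystatin C that macrophages make in quantity, had changes of -0.44 ± 0.90, -1.34 ± 0.67 and -0.32 ± 0.84 (limma adjusted p = 0.882, 0.478 and 0.876). Of 11 relatives of Crip1, galectin genes and filament genes, 2 of 4, 1 of 3 and 0 of 3 tested were higher with D18 in the CD8+, CD4+ and dendritic cell sorts. Plec, whose product links intermediate filaments such as vimentin to the membrane, had 11, 51 and 13 reads with D18 in the CD8+ sort and 6, 3 and 5 with anti-PD-1 (2.01 ± 0.64, limma adjusted p = 0.534). Lgals3, the galectin of macrophages, had a change of -1.24 ± 0.91 in the CD4+ sort (limma adjusted p = 0.625), where that of Lgals1 was -0.35.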

How the data were processed

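Bulk RNA of 3 sorts was measured in 18 Smart-Seq2 libraries, 3 per treatment and sort, grouped by the cell type, treatment and replicate number in the labels. Per the submitters' processing notes, tools were STAR 2.4.0, HTSeq 0.6.1 and DESeq2 (version not given in the sources used here), with mm10; counting mode and read length are not given there either. The kit keeps no strand and has no molecular identifiers, so limits on a count of 0 (3 reads) cover counting error only.

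The deposited values are log2 values that the authors made from size-factor-normalised reads by a variance-stabilising transform, in 1 table per sort. Undoing it (table minima 2.17, 1.34 and 2.22) gave whole reads for 100% of values, within 0.001. The log2 values are not counts, so no count model was run.

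limma 3.58.1 in R 4.3.3 (trend and robust settings) was fitted per sort on log2(normalised reads + 1), for genes whose normalised reads averaged 10 or more across the sort's 6 libraries, without a block; Benjamini-Hochberg adjusted p over all genes was held against 0.05. Deviations of same-numbered libraries correlated at 0.36, 0.51 and 0.56 in the CD8+ sort. The values were -0.14, 0.15 and -0.20 in the CD4+ sort and 0.03, -0.09 and 0.14 in the dendritic cell sort. Same-numbered libraries thus deviated together in the CD8+ sort only. The labels state no pairing, and what same-numbered libraries share was not tested. Ratios to Lyz2 were tested by exact permutation. The fit was tested on simulated data. Sequences were read with Python 3.11.15 and biopython 1.88; symbols came from GENCODE M21 and were found for 46488 IDs (98.9%), promoters from RefSeq.

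The members, the lists and the marker sets were chosen with earlier results of these data known. All 9 members and Lyz2 are named whatever their values; other list genes are named from those called and from the 3 with the smallest unadjusted p per sort. The 3 genes with the highest Spearman rho per member are named as most like it. Alternatives were quantile normalisation, nuclear CPM as in the levels, limma-voom with quality weights, other filters (none, 100) and pseudocounts (0.1, 10), the replicate block, 1 fit of 18 libraries, the mitochondrial division as a term, and libraries left out. The deposited values as they stand, the block with a pair left out, CD4+ anti-PD-1 replicates 1 and 2 left out, reads per 1000 T cell marker reads and directions within pairs were chosen after seeing the data.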

Additional observations from a re-analysis of the deposited data

How the results depend on the processing

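Depth, from 11170 to 266392 reads a library, and 3 libraries a group limit these results. In the CD8+ sort 0 of 1569 genes were called without a block, and the replicate block gave 20 genes (1.27%) and 4 members. With pair 1, 2 or 3 left out as well, it gave 55 of 1621, 13 of 1539 and 17 of 1551 genes. Among these were 4, 1 and 1 members. This contrast chose the members, so nothing is read from their calls. The 20 genes included the mitochondrial mt-Nd1, mt-Co1, mt-Nd5 and mt-Cytb, each lower with D18. No filter on low values gave 22 of 14497 genes, 1 fit of 18 libraries 2 of 1569 and the deposited values 1 of 1569. With 1 library left out, 0 to 3 genes were called (3 of 1599 without D18 replicate 3) and 0 members each time. In the CD4+ sort no filter gave 29 of 14441 genes, and leaving out both libraries numbered 3 gave 35 of 976. There, 1 library left out gave 0 to 20 genes and 0 to 1 members. The highest counts were without anti-PD-1 replicate 3, where 20 of 969 genes were called (2.06%). In the dendritic cell sort the counts were 1 of 848 without both libraries numbered 3 and 0 with any 1 library left out. The block changed no call in the CD4+ and dendritic cell sorts.

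Some directions in the CD4+ sort reversed, and the cause was not tested. With the mitochondrial division as a term, which leaves anti-PD-1 replicate 3 alone for its group, and equally without anti-PD-1 replicates 1 and 2, log2 changes were -0.52 for Ly6a, -0.51 for Ctla2a, -0.89 for Crip1, -0.48 for S100a10, -0.82 for S100a6 and 0.41 for Lyz2; quantile normalisation gave 0.23 for Lyz2. With 1 library left out there, Ly6c2 ran from -0.59 to 2.55, Ly6a from -0.27 to 0.34, S100a6 from -0.32 to 1.29, Lgals1 from -0.88 to 0.15 and Lyz2 from -1.20 to 0.16.

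In the dendritic cell sort Vim and Lyz2 came to 0.26 and 0.24 with quantile normalisation, 0.0586 and 0.0423 in nuclear CPM, and 0.58 and 0.56 in 1 fit of 18 libraries. Lgals1 and Lyz2 came to -0.37 and 0.14 with limma-voom and to -0.56 and 0.63 with the division, which gave -0.13 for S100a6. Without both libraries numbered 3, S100a10 was -0.28 and S100a6 -0.021. With 1 library left out, Ly6a ran from -2.05 to 0.51, S100a10 from -0.29 to 1.40, S100a6 from -0.22 to 0.51, Vim from -0.22 to 0.12, Lgals1 from -0.45 to 0.96 and Lyz2 from -0.71 to 0.89. In the CD8+ sort the changes ran from -0.01 to 0.26 for Vim, 1.19 to 2.96 for Crip1, 0.23 to 1.67 for S100a6, 0.45 to 1.35 for Lgals1, 0.43 to 0.94 for Ly6a, 1.28 to 1.87 for Ly6c2, 1.57 to 2.21 for Ctla2a and 1.15 to 1.58 for S100a10, the lowest of Crip1, S100a6 and Lgals1 without anti-PD-1 replicate 2.

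Ratios above that of anti-PD-1 numbered 23 of 27, among them the 9 of the CD8+ sort, whose values chose the genes. They numbered 14 to 24 with 1 replicate number left out (14 without anti-PD-1 replicate 2). The S100a4 ratio in the CD4+ sort came to 0.29 with a pseudocount of 3, 1.13 against Csf1r and 0.51 against summed macrophage markers. Against Csf1r the dendritic cell ratios of Ly6a and S100a4 came to 0.46 and 0.50. With 1 replicate left out, CD4+ ratios ran from -0.49 to 3.14 for Ly6c2, -0.18 to 1.27 for Ly6a, -1.24 to 0.80 for S100a4, -0.21 to 1.99 for S100a6 and -0.79 to 1.06 for Lgals1, and dendritic cell ratios from -3.24 to 0.62 for Ly6c2, -0.33 to 3.46 for Ctla2a, -0.23 to 1.07 for S100a10, -2.25 to 0.22 for S100a4, -0.78 to 1.20 for S100a6, -0.91 to 0.75 for Vim and -1.02 to 1.21 for Lgals1.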
